A study of Mus musculus with 9 samples.

Results

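The TRIM (tripartite motif) proteins are a large family of ubiquitin ligases, and their genes were taken here as every gene of the count table whose symbol is Trim followed by a digit. That rule found 68 of the 21951 genes of the table. Of these, 38 had enough reads to be tested, 11 had no read in any library, and the other 19 had between 1 and 63 reads over all 9 libraries together. The study measured RNA by sequencing in BV2 cells, an immortalised wild-type line of mouse microglia, in 3 groups of 3 libraries. Control cells were given the vehicle, 20% hydroxypropyl-β-cyclodextrin, and were not irradiated. The irradiated group received that vehicle for 30 min and then 10 Gy of X-rays. The triol-treated group received 10 µM of a steroid, 5α-androst-3β, 5α, 6β-triol, for 30 min before the same irradiation, and its labels name no vehicle. For replicates 2 and 3 of that group the treatment label writes the last position of the triol as 7β and 8β, against 6β in their titles. All groups are the same cell line, a group with triol and no irradiation was not among the samples, and the labels do not state how long after irradiation RNA was taken. Nothing in the labels shows whether replicates were grown apart, so every p-value reflects the spread of these 9 libraries alone, and that spread may be technical.

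A TRIM protein carries a RING domain that recruits a ubiquitin-conjugating enzyme, then B-box zinc fingers and a coiled coil through which it pairs with itself. The domain at its other end selects the target, and the largest class ends in a PRY-SPRY domain. Several members of that class act in innate immunity, where they attach ubiquitin to sensors of viral RNA, to adaptors and to transcription factors, or bind viral capsids and antibody-coated particles. Interferon induces part of the family, while other members are made at a steady level and serve in chromatin repression, the cytoskeleton, muscle or nerve cells.

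Total counts ran from 13879062 to 18944051 per library, and 11295 genes passed the filter on low counts. Markers of microglia were present as labelled: Csf1r had at least 4624 reads, Ptprc at least 5665 and Cd68 at least 9214 in every library, while C1qa had 0 to 6. Of 11 tested microglial markers 10 were called lower after irradiation, beside 22.2% of all tested genes. The median log2 fold change of the 11 was −0.42. Neuron markers summed to 0.13 to 0.85 RPM (reads scaled to the library total) in control, 1.22 to 2.21 after irradiation and 2.69 to 3.33 with triol, and the only tested one, Tubb3, was called higher after irradiation (log2 4.20, edgeR adjusted p = 5.9e-08). Astrocyte markers summed to 0.45 to 0.99, 2.04 to 2.49 and 1.68 to 2.59 RPM in the same order, with Slc1a2, the only tested one, called higher (log2 1.63, adjusted p = 6.1e-04) and Aqp4 at 0 in all libraries. Hepatocyte markers summed to 1.09 to 2.60 RPM in control, 1.05 to 2.69 after irradiation and 9.71 to 10.6 with triol. For triol-treated against irradiated cells, 3 of 4 tested hepatocyte markers were called higher, beside 0.0974% of all tested genes. They were Alb (log2 2.18, edgeR adjusted p = 5.8e-04), Serpina1e (4.35, 8.8e-04) and Serpina3k (5.65, 3.5e-05). The part of all these marker genes in the results below was not tested. In bulk RNA, a change in the share of cells and a change in RNA per cell cannot be told apart.

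The start regions of the members are shown first, because the members that rose most include neighbours on chromosome 7 whose starts share an interferon-type motif. That motif was not found at the starts of Trim69, which rose most, nor of Trim66 or Trim62. RefSeq start regions on GRCm38.p6 were matched by symbol for 53 of the 68 members, 27 of them tested. The interferon-stimulated response element (ISRE), the site read by interferon-activated transcription factors, was searched as GAAANNGAAA on both strands, from 250 bases before to 50 bases after each start. The letters were found in 9 of 53 members (17.0%), namely Trim2, Trim5, Trim12a, Trim12c, Trim21, Trim26, Trim30a, Trim30d and Trim34a. Over all genes of the RefSeq table the share was 3.99%, and it was 3.44% of the 32851 single start regions. The 9 members are not independent of each other, because the start regions of Trim5, Trim12a and Trim12c are near-copies. A start region of Trim30a also aligned with that of Trim30d over 294 columns with 276 identical (93.9%). A match describes letters and does not show a bound site. The gamma-activated site TTCNNNGAA, a motif of its own that reads the same on both strands, was found in 6 of the 53 members (11.3%), against 9.55% of all genes.

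Regions of 5 members with a match are printed here, each from 250 bases before the start to the 30 bases from it, 5′ to 3′ on the strand of the gene, with the matches in capitals. They lie at chr7:104465164-104465443 for Trim30a, chr7:104353320-104353599 for Trim12c, chr7:104315466-104315745 for Trim12a and chr7:102565453-102565732 for Trim21, all on the minus strand, and at chr17:36836896-36837175 for Trim26, on the plus strand.
Trim30a: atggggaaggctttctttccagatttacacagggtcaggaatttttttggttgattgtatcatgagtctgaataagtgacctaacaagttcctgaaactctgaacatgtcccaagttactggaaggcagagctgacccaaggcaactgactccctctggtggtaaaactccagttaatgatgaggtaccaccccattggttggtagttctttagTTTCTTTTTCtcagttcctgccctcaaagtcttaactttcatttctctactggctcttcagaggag
Trim12c: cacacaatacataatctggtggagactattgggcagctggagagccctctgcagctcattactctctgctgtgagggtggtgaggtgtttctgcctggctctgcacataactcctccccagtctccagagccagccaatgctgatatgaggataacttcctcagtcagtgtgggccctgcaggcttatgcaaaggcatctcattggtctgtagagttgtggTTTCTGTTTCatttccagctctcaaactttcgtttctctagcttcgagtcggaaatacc
Trim12a: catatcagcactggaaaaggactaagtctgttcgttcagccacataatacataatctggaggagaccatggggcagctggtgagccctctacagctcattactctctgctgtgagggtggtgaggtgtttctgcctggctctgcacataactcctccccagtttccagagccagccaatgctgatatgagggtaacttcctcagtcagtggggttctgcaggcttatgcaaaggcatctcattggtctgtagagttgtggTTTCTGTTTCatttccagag
Trim21: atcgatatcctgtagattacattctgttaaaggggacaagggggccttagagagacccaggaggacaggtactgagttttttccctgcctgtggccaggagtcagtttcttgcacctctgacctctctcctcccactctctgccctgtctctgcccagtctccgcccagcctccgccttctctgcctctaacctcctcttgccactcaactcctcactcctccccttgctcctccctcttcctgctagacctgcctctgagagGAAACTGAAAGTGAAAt
Trim26: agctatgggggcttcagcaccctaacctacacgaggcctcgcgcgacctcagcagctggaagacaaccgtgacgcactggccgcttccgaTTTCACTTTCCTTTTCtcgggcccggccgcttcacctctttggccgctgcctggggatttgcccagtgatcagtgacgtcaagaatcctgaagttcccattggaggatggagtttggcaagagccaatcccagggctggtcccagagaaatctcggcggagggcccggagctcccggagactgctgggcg
The match in Trim30a, TTTCTTTTTC on the strand shown, began 36 bases before the start, and a further start of the gene carried the same letters 2 bases after it. Trim12c and Trim12a shared TTTCTGTTTC, which began 29 bases before the annotated start of Trim12c and 10 bases after that of Trim12a. Their 300-base regions aligned over 261 columns with 247 identical (94.6%), and that of Trim12a matched the region of Trim5 in 241 of 241 aligned bases. Trim21 held overlapping matches, GAAACTGAAA and GAAAGTGAAA, beginning 13 and 19 bases after its start. In Trim26 the overlapping matches began 160 and 154 bases before the start.

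Levels before irradiation were compared per exon length, as library-scaled counts (CPM, after TMM scaling) divided by the kilobases of annotated exon. The highest levels in control cells were those of Trim28, a corepressor that silences retroelements with zinc finger proteins (56.1 ± 2.0 CPM per kb, mean ± SD, n = 3), and Trim25, the ligase that activates the RNA sensor RIG-I (49.99 ± 1.61). Below them came Trim35 (34.4 ± 0.864), Trim44 (31.7 ± 0.743), Trim8 (30.6 ± 0.636) and Trim33 (23.2 ± 0.767). After irradiation Trim25 stood at 64.9 ± 2.09 and Trim28 at 63.0 ± 2.48 CPM per kb, means that differed by less than their SD. The members that rose most were made at low levels: Trim30a stood at 1.57 ± 0.158, Trim12c at 0.964 ± 0.0526 and Trim69 at 0.151 ± 0.0681 CPM per kb in control cells. Trim25, Trim28, Trim33, Trim44 and Trim35 together held 55.4% to 56.9% of all TRIM reads in every library. All 68 members summed to 1900 ± 22.2 RPM in control, 2093 ± 10.1 after irradiation and 2092 ± 11.6 with triol (n = 3).

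**Figure D1:**
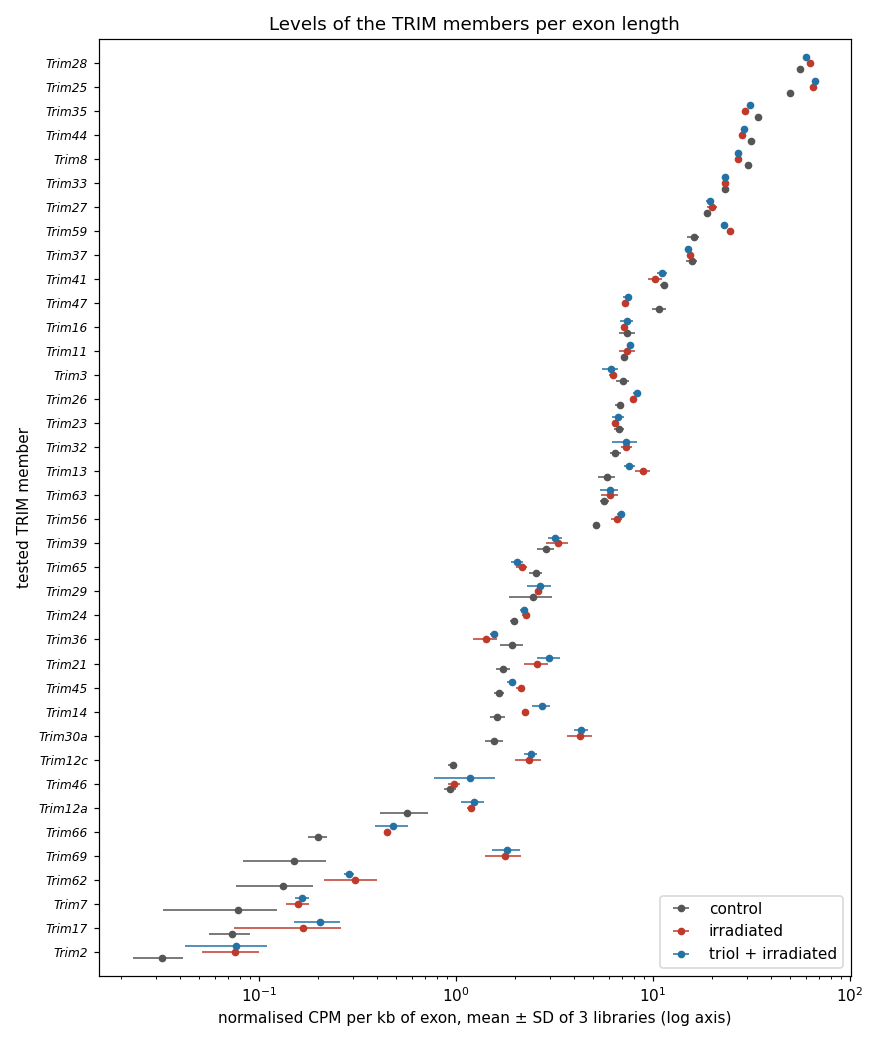
Mean level of each of the 38 tested TRIM members in normalised CPM per kb of exon, on a log axis, with SD of 3 libraries, for control, irradiated and triol-treated irradiated cells. Trim28 and Trim25 lie at the top, and the largest gaps between control and the irradiated groups lie in the lower part, at Trim30a, Trim12c and Trim69.

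The first comparison asked what irradiation changed. Of the 38 tested members 23 were called (edgeR quasi-likelihood test, adjusted p under 0.05), or 60.5%, against 44.3% of all tested genes. Of these 18 rose and 5 fell. The share raised was 47.4%, against 22.1% of all 11295 tested genes, and the share lowered was 13.2%, against 22.2%. Called genes with a rise of at least 1 on the log2 scale numbered 7 among the members, Trim69, Trim30a, Trim12c, Trim2, Trim66, Trim62 and Trim12a, or 18.4%, against 3.91% of all tested genes. Of these 7, Trim69, Trim2 and Trim62 had a control library under 10 reads and passed the filter on low counts only with libraries of the irradiated groups. For them a rise is not independent of the filter. The median log2 fold change was 0.19 for the members and 0.01 for all tested genes. An unadjusted p under 0.05 was reached by 30 members, against 50.6% of all genes. In 26 members (68.4%) all irradiated libraries lay on one side of all control libraries, against 50.7% of all genes: 19 were higher, against 25.2%, and 7 lower, against 25.5%. Leaving out irradiated replicate 1 raised the number of lowered members from 5 to 8.

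The largest rise was that of Trim69, a PRY-SPRY ligase first described in testis, on chromosome 2 from 122160700 to 122179027. Its libraries held 6, 4 and 3 reads in control, 55, 53 and 39 after irradiation and 65, 66 and 53 with triol. In normalised units that was 0.433, 0.229 and 0.195 CPM in control cells, 3.76, 3.78 and 2.55 after irradiation and 3.76, 3.76 and 2.78 with triol. The irradiated libraries lay far above the control libraries, with a log2 fold change of 3.55 (SE 0.35, 95% interval 2.84 to 4.26, adjusted p = 3.7e-11), which is 11.7-fold. The control libraries held 13 reads of it in all. Each of them had under 10, so Trim69 passed the filter on low counts only through the groups where it was high. Both RefSeq start regions of Trim69 were without the ISRE letters.

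In a cluster of PRY-SPRY genes on chromosome 7, related to human TRIM5 and TRIM22, the 3 members with enough reads to be tested rose, namely Trim30a, Trim12c and Trim12a. Trim30a, which restrains Toll-like receptor signalling by removing the adaptors TAB2 and TAB3, lies from 104409025 to 104465193. It had 6.06, 7.21 and 6.12 CPM in control cells, 20.7, 16.1 and 16.1 after irradiation and 17.4, 19.4 and 16.7 with triol. Each irradiated library was more than the highest control library, and the log2 fold change was 1.44 (SE 0.12, adjusted p = 1.1e-13). Trim12c, known to promote interferon and NF-κB signalling, lies from 104338754 to 104353362. Its values were 3.39, 3.78 and 3.65 CPM in control cells, 10.2, 8.78 and 7.52 after irradiation and 9.65, 8.31 and 8.98 with triol, again without overlap (log2 1.28, SE 0.15, adjusted p = 2.0e-09). Trim12a, its neighbour from 104299894 to 104315466, had 2.96, 4.29 and 2.61 CPM in control cells, 7.25, 6.71 and 6.73 after irradiation and 8.21, 6.83 and 6.35 with triol. Its control libraries were the more variable, yet the highest of them stayed below the lowest irradiated library (log2 1.05, SE 0.17, adjusted p = 2.4e-06).

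These genes are uncertain as single genes, since the counting may have split or dropped reads that fit several of them. Of the distinct 50-base stretches in the transcripts of Trim12c, 33.7% also occurred in another gene, most often Trim5, and the shares were 10.5% for Trim12a and 5.98% for Trim30a. With the counts of Trim5, Trim12a and Trim12c summed, an alternative chosen after seeing the data, the log2 fold change was 1.17 (SE 0.12, adjusted p = 3.3e-11). The sum of Trim30a, Trim30b, Trim30c and Trim30d gave 1.48 (SE 0.11, adjusted p = 1.8e-14). Trim30d had 1, 3 and 1 reads in control, 4, 11 and 9 after irradiation and 9, 4 and 13 with triol, and was too low for the test. Trim5 had 2, 3 and 0 reads in control, 2, 1 and 4 after irradiation and 0, 4 and 4 with triol, so its groups overlapped. Trim30c had 0 or 1 read in every library, and Trim6 had 2 reads in all, both in 1 triol-treated library. Trim34a had 3, 2 and 1 reads in control, 7, 4 and 4 after irradiation and 0, 5 and 7 with triol, and 59.7% of its stretches were shared. Trim34b had no read, and 56.8% of its stretches occurred in Trim34a.

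Trim21, the cytosolic receptor for antibody-coated viruses, lies apart from that cluster on chromosome 7, from 102557921 to 102565486. It had 6.06, 6.30 and 7.04 CPM in control cells, 11.1, 8.42 and 9.28 after irradiation and 9.71, 12.7 and 10.8 with triol. All irradiated libraries were above all control libraries (log2 0.57, SE 0.13, adjusted p = 5.2e-04). Trim25, on chromosome 11 from 88999376 to 89020293, had 297, 288 and 278 CPM in control cells, 385, 375 and 361 after irradiation and 384, 389 and 376 with triol. At this depth a modest step was measured closely (log2 0.38, SE 0.03, adjusted p = 8.2e-13). Trim56, a ligase of the interferon response to cytosolic DNA, had 47.6, 48.2 and 47.1 CPM in control cells, 60.6, 64.7 and 57.5 after irradiation and 60.6, 65.0 and 66.1 with triol. Its groups were also apart (log2 0.35, SE 0.06, adjusted p = 1.5e-06).

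Trim14, an adaptor of the mitochondrial antiviral protein MAVS that has no RING domain, rose by 0.45 (SE 0.12, adjusted p = 0.0024). Its control libraries had 6.50, 7.73 and 6.97 CPM, after irradiation 9.64, 9.78 and 9.74, and the triol-treated libraries 13.2, 11.7 and 10.7. Nans covers 31.3% of its exonic bases on the opposite strand, and whether the counting used strand is not known. Nans itself had a log2 fold change of −0.13 (adjusted p = 0.074), and it passed without control replicate 3 (0.025) or irradiated replicate 2 (0.042). Whether reads of Nans entered the counts of Trim14 was not tested. Trim26, which acts on the interferon factor IRF3, had 47.3, 44.2 and 49.1 CPM in control cells, 55.0, 54.3 and 53.6 after irradiation and 56.1, 59.8 and 55.3 with triol. This was a small step without overlap (log2 0.21, SE 0.06, adjusted p = 0.0019).

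All 6 tested members with the ISRE letters rose, Trim2, Trim12a, Trim12c, Trim21, Trim26 and Trim30a, with a median log2 fold change of 1.13. For Trim2 the letters were in 1 of 5 start regions, and its call was lost without irradiated replicate 1 (adjusted p = 0.096). Among the 21 tested members with a RefSeq start region and without the letters, 11 rose and 2 fell, with a median of 0.20. Tested members with no matched start region are in neither set, among them Trim8, Trim35 and Trim36, which fell, and Trim14, which rose. Over all tested genes, 35.9% of 345 with the letters rose, against 21.2% of 8634 without. Trim12a and Trim12c share most of their start region, so these 6 are not independent of each other. Of the members, 4 tested ones with the letters lie on chromosome 7.

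**Figure D2:**
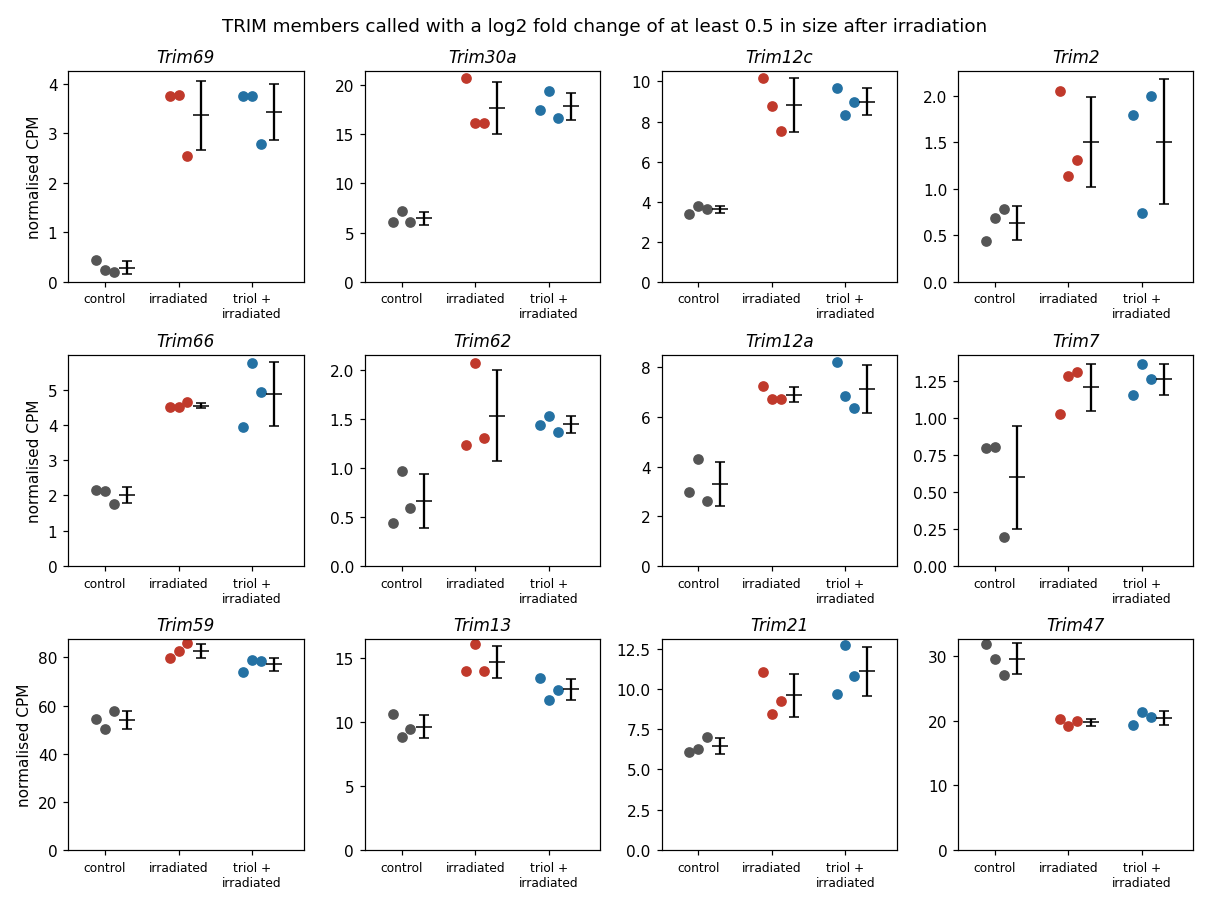
Normalised CPM in every library for the 12 members called after irradiation with a log2 fold change of 0.5 or more in size, with mean and SD of 3 libraries beside the points and axes that start at 0. Trim69, Trim30a, Trim12c and Trim12a are higher in all irradiated and triol-treated libraries than in all control libraries, and Trim47 is lower in all of them.

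Of the 4 members with a PHD finger and a bromodomain, which read histone marks, 3 rose, beside 22.1% of all tested genes, and the call of 1 of the 3, Trim24, was lost under 6 alternatives. Trim66, a binding partner of heterochromatin protein known from testis, had 2.17, 2.12 and 1.76 CPM in control cells, 4.51, 4.50 and 4.64 after irradiation and 3.93, 5.75 and 4.94 with triol. The irradiated values were tight and lay wholly above control (log2 1.17, SE 0.20, adjusted p = 6.7e-06). Trim28 had 228, 243 and 229 CPM in control cells, 251, 266 and 270 after irradiation and 246, 243 and 257 with triol, a small rise (log2 0.17, SE 0.04, adjusted p = 1.6e-04). Trim24, a coactivator that also marks p53 for degradation, had 16.9, 17.5 and 16.0 CPM in control cells, 20.4, 19.2 and 18.8 after irradiation and 19.2, 19.3 and 18.1 with triol. Its call (log2 0.21, SE 0.08, adjusted p = 0.040) was lost with DESeq2 (0.091), with no filter (0.083) and without control replicate 1 (0.078), control replicate 3 (0.14), irradiated replicate 1 (0.16) or irradiated replicate 2 (0.073). Trim33, a regulator of SMAD4 in TGF-β signalling, had 219, 232 and 232 CPM in control cells, 220, 227 and 236 after irradiation and 233, 226 and 224 with triol. Its groups overlapped (log2 fold change 95% interval −0.07 to 0.07, adjusted p = 0.985).

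Both tested members anchored in membranes by a transmembrane segment rose by similar amounts, beside 22.1% of all tested genes called higher. The class holds only these 2 members. Trim59 had 54.6, 50.1 and 57.5 CPM in control cells, 79.7, 82.6 and 85.7 after irradiation and 73.9, 78.8 and 78.4 with triol. Its groups were well apart (log2 0.62, SE 0.05, adjusted p = 4.6e-13). Trim13, which acts in the degradation of proteins of the endoplasmic reticulum, had 10.7, 8.87 and 9.45 CPM in control cells, 14.0, 16.1 and 14.0 after irradiation and 13.5, 11.8 and 12.5 with triol (log2 0.61, SE 0.11, adjusted p = 8.1e-06). Of its 50-base stretches 14.2% occurred in another annotated gene, Gm9359.

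Of the tested members with NHL repeats, a propeller that binds RNA or protein, Trim2 was called higher, beside the same 22.1%, and Trim32 and Trim3 were not called. Trim2, a neuronal ligase, was scarce, with 0.433, 0.687 and 0.782 CPM in control cells, 2.05, 1.14 and 1.31 after irradiation and 1.79, 0.740 and 2.0 with triol. Its call (log2 1.22, SE 0.39, adjusted p = 0.0095) was lost without irradiated replicate 1 (log2 0.92, adjusted p = 0.096). Trim45, which has no NHL repeats, rose by 0.37 (SE 0.11, adjusted p = 0.0037). Trim32, a ligase mutated in a muscular dystrophy, had 20.6, 19.7 and 22.3 CPM in control cells, 22.8, 22.9 and 25.6 after irradiation and 24.4, 19.8 and 26.4 with triol. Although the irradiated libraries lay above control, it did not pass (log2 0.19, SE 0.09, adjusted p = 0.080), and passed with upper quartile scaling (0.041) or without control replicate 3 (0.049). Trim3, a neuronal relative of Trim2, had a log2 fold change of −0.17 (adjusted p = 0.063).

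Further PRY-SPRY members were measured at very low levels. Trim62, Trim7 and Trim17 each had a control library under 10 reads and passed the filter on low counts only with libraries of the irradiated groups. Trim62 had 0.433, 0.973 and 0.586 CPM in control cells, 1.23, 2.07 and 1.31 after irradiation and 1.44, 1.54 and 1.36 with triol. Its call (log2 1.15, SE 0.35, adjusted p = 0.0072) was lost without irradiated replicate 2 (0.88, adjusted p = 0.083). Trim7 had 0.794, 0.802 and 0.195 CPM in control cells, 1.03, 1.29 and 1.31 after irradiation and 1.16, 1.37 and 1.26 with triol, with control replicate 3 the low one. Its log2 fold change of 1.0 (SE 0.39, adjusted p = 0.0345) was 0.59 without control replicate 3 (adjusted p = 0.24), and the call was also lost with DESeq2 (0.068) and without irradiated replicate 2 (0.087) or 3 (0.099). Trim17 did not pass (log2 1.17, adjusted p = 0.078), but passed without irradiated replicate 2 (1.49, adjusted p = 0.032), and its value was 0.69 without irradiated replicate 3. Of its exonic bases 19.0% overlap the histone gene Hist3h2a on the same strand, whose own log2 fold change was 1.45 (adjusted p = 0.025), a call lost without control replicate 1 (0.076) or 3 (0.086) or irradiated replicate 1 (0.080) or 3 (0.19).

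Of the 5 members that fell, Trim47 fell most. Trim47, a PRY-SPRY ligase, on chromosome 11 from 116105752 to 116127210, had 32.0, 29.7 and 27.2 CPM in control cells, 20.2, 19.1 and 19.9 after irradiation and 19.3, 21.5 and 20.5 with triol. The irradiated libraries were all below control (log2 −0.58, SE 0.08, adjusted p = 5.8e-08). Trim65, a ligase of the RNA sensor MDA5 whose exons overlap 8.23% of those of Trim47 on the same strand, had a log2 fold change of −0.23 (adjusted p = 0.056). It passed without control replicate 2 (0.048) or irradiated replicate 1 (0.035) and with the replicate block (0.0499). Trim36, a microtubule-binding member, fell by 0.45 (SE 0.13, adjusted p = 0.0041), and its highest irradiated library, 8.14 CPM, overlapped its lowest control library, 8.08 CPM.

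Trim8, Trim35 and Trim44, all abundant, also fell by small amounts. Trim8, which has no C-terminal domain and binds SOCS1, a brake on cytokine signalling, had 114, 116 and 111 CPM in control cells, 102, 97.1 and 101 after irradiation and 98.5, 101 and 103 with triol. The groups were apart (log2 −0.18, SE 0.04, adjusted p = 3.2e-04). Trim35 fell by 0.22 (SE 0.04, adjusted p = 8.2e-06) and Trim44, which lacks a RING domain, by 0.16 (SE 0.04, adjusted p = 3.6e-04). Trim27, a PRY-SPRY ligase of the nucleus and cytoplasm, had 104, 105 and 102 CPM in control cells, 103, 112 and 116 after irradiation and 103, 106 and 113 with triol. Its groups overlapped (log2 0.10, adjusted p = 0.064), and it passed with upper quartile scaling (0.016) or without irradiated replicate 1 (0.014). Trim37, a centriole regulator with a MATH domain, had 107, 112 and 122 CPM in control cells, 111, 110 and 113 after irradiation and 109, 111 and 108 with triol. It too overlapped between groups (log2 −0.03, 95% interval −0.12 to 0.06, adjusted p = 0.60).

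The counts by domain class stand beside 22.1% of all tested genes called higher and 22.2% called lower. Of 19 tested PRY-SPRY members 10 rose and 2 fell, with a median log2 fold change of 0.38 and a range of −0.58 to 3.55. For the 4 tested members with no C-terminal domain, 1 rose and 2 fell (median −0.04). Trim23, which ends in an ARF GTPase domain, Trim63, a muscle ligase, and Trim46 and Trim16 were among the 15 not called. Also not called were Trim39 (0.20, adjusted p = 0.066), which passed with upper quartile scaling (0.034) or without control replicate 3 (0.022) or irradiated replicate 2 (0.015), and Trim41 (−0.15, adjusted p = 0.062). Trim41 passed with no filter (0.048) and without control replicate 1 (0.045), irradiated replicate 1 (0.038) or irradiated replicate 2 (0.044). Trim3 passed with no filter (0.047) and without control replicate 2 (0.030) or irradiated replicate 1 (0.046).

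The 30 untested members together had 12 to 23 reads per control library, 43 to 53 per irradiated and 41 to 66 per triol-treated library. Trim72, a membrane repair protein of muscle, had 0, 2 and 1 reads in control, 14, 6 and 3 after irradiation and 5, 11 and 15 with triol. Trim30b had no read in control, 3, 7 and 1 after irradiation and 0, 3 and 1 with triol. With no filter on low counts, Trim72 (adjusted p = 0.0025), Trim30b (0.0094) and Trim30d (0.010) passed for irradiated against control cells. Trim15, with 4 to 11 reads per library, held the most reads of this set. The members without a single read were Trim31, Trim34b, Trim42, Trim43b, Trim43c, Trim52, Trim55, Trim58, Trim60, Trim61 and Trim80.

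Genes that work with TRIM ligases moved to different extents after irradiation. Their counts stand beside 22.1% of all tested genes called higher, 22.2% called lower and a median of 0.01. Of 14 tested sensing genes that TRIM ligases act on, 6 rose and 3 fell, with a median log2 fold change of 0.04, and the share that fell was close to that of all genes. RIG-I, encoded by Ddx58 and a target of Trim25, rose by 1.68 (SE 0.06), and MDA5, encoded by Ifih1 and a target of Trim65, rose by 1.64 (SE 0.16). Ikbke, a kinase of IRF3, fell by 0.47 (SE 0.07), and Mavs fell by 0.17 (adjusted p = 0.0070), a call lost without control replicate 2 (0.057). Of 11 tested genes of interferon signalling 6 rose and 2 fell, with a median of 0.56. Isg15, the ubiquitin-like protein for which Trim25 is a ligase, rose by 2.77 (SE 0.16), and Usp18, which removes it, by 1.55 (SE 0.06). The receptor gene Ifnar1 fell by 0.31 (SE 0.04), and the kinase gene Tyk2 by 0.23 (adjusted p = 0.0094), a call lost without control replicate 2 (0.062) or irradiated replicate 3 (0.062). Ifnb1, the interferon-β gene, had 0 to 7 reads per library and was not tested.

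Of 14 ubiquitin-activating and conjugating enzyme and ubiquitin genes 5 rose and none of the others passed, with a median of 0.08. Ube2v2, a partner of Ube2n in building K63-linked chains, rose by 0.36 (SE 0.07), and Ube2e3 by 0.22 (SE 0.07), a call lost without irradiated replicate 3 (0.084). In the repressor complex around Trim28, 3 of 11 tested genes rose, a share near the 22.1% of all tested genes, with a median of 0.07. Among the 3 were Cbx3, a heterochromatin protein (0.21), and Hdac2, a histone deacetylase (0.19). Of the 6 genes of the p53 axis 4 rose and 1 fell, with a median of 0.15: Cdkn1a rose by 0.40 (SE 0.05), the damage kinase gene Atm by 0.28 (SE 0.04), and the p53 inhibitor gene Mdm4 fell by 0.57 (SE 0.06). Of 6 genes of the SMAD4 axis the receptor gene Tgfbr1 rose (0.40), and Tgfbr2 (−0.56) and Tgfb1 (−0.23) fell, with a median of −0.03. Pml, the TRIM gene of nuclear bodies that goes by another name, rose from 31.6 ± 2.48 to 53.7 ± 3.13 CPM (n = 3, log2 0.76, SE 0.06, edgeR adjusted p = 3.5e-13).

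The second comparison asked what triol changed in irradiated cells, and it shares its irradiated libraries with the first. No TRIM member was called: edgeR passed 0 of 38, against 0.106% of all tested genes (0.0974% higher and 0.00885% lower). None rose by 1 or more on the log2 scale, against 0.0266% of all genes called so. An unadjusted p under 0.05 was reached by 4 members with edgeR, or 10.5%, against 7.66% of all tested genes. DESeq2 gave an adjusted p to 8 of the 38 members and called 0 of them, with 1 member at an unadjusted p under 0.05. The members ranged from −0.22 to 0.29 on the log2 scale, with a median of 0.03 beside 0.002 for all tested genes. For 32 members the 95% interval of the difference stayed within 0.5 in either direction, and for 6 it reached further. None of the tested partner genes of the lists described for irradiation was called with triol either.

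The 4 members with an unadjusted p under 0.05 were Trim14, Trim13, Trim28 and Trim59. Trim14 was higher with triol by 0.29 (95% interval 0.06 to 0.51, adjusted p = 0.48), and every triol-treated library, from 10.7 CPM, exceeded every irradiated library, up to 9.78 CPM. Trim13 was lower, with a difference of −0.22 (−0.42 to −0.02, adjusted p = 0.60), and Trim59 had −0.10 (adjusted p = 0.64). For both, all triol-treated libraries lay below all irradiated libraries. Trim28 had a difference of −0.08 (−0.15 to −0.01, adjusted p = 0.61), and its groups overlapped at 257 and 251 CPM. In 6 members (15.8%) triol-treated and irradiated libraries lay fully apart, against 13.2% of all genes, with 3 higher, against 7.35%, and 3 lower, against 5.88%: Trim14, Trim26 (0.07) and Trim35 (0.07) were higher with triol, and Trim13, Trim59 and Trim45 (−0.16) lower.

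For 10 of the 23 members called after irradiation, the difference between triol-treated and irradiated libraries ran from −0.08 to 0.21 on the log2 scale. Other called members, described above, lay outside that range: Trim14 (0.29), Trim13 (−0.22), Trim45 (−0.16) and Trim59 (−0.10). The difference was 0.03 for Trim69 (95% interval −0.39 to 0.44), 0.01 for Trim30a (−0.18 to 0.21), 0.03 for Trim12c (−0.22 to 0.28) and 0.04 for Trim12a (−0.25 to 0.34). For Trim21 it was 0.21 (−0.03 to 0.45), for Trim25 0.04 (−0.03 to 0.10) and for Trim47 0.05 (−0.12 to 0.21). For the scarce Trim2 it was 0.02 (−0.62 to 0.65), for Trim62 −0.08 (−0.67 to 0.52) and for Trim66 0.10 (−0.24 to 0.43), so sizeable differences in either direction lie within the intervals of Trim2 and Trim62. The adjusted p of these 10 members was 0.72 or higher. Among these 10 the interval was narrowest for Trim25, which had at least 4114 reads in every library. It was widest for Trim2, which had 13 to 38 reads in these libraries. Outside the 10, the called member Trim7 had an interval of −0.59 to 0.72.

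**Figure D3:**
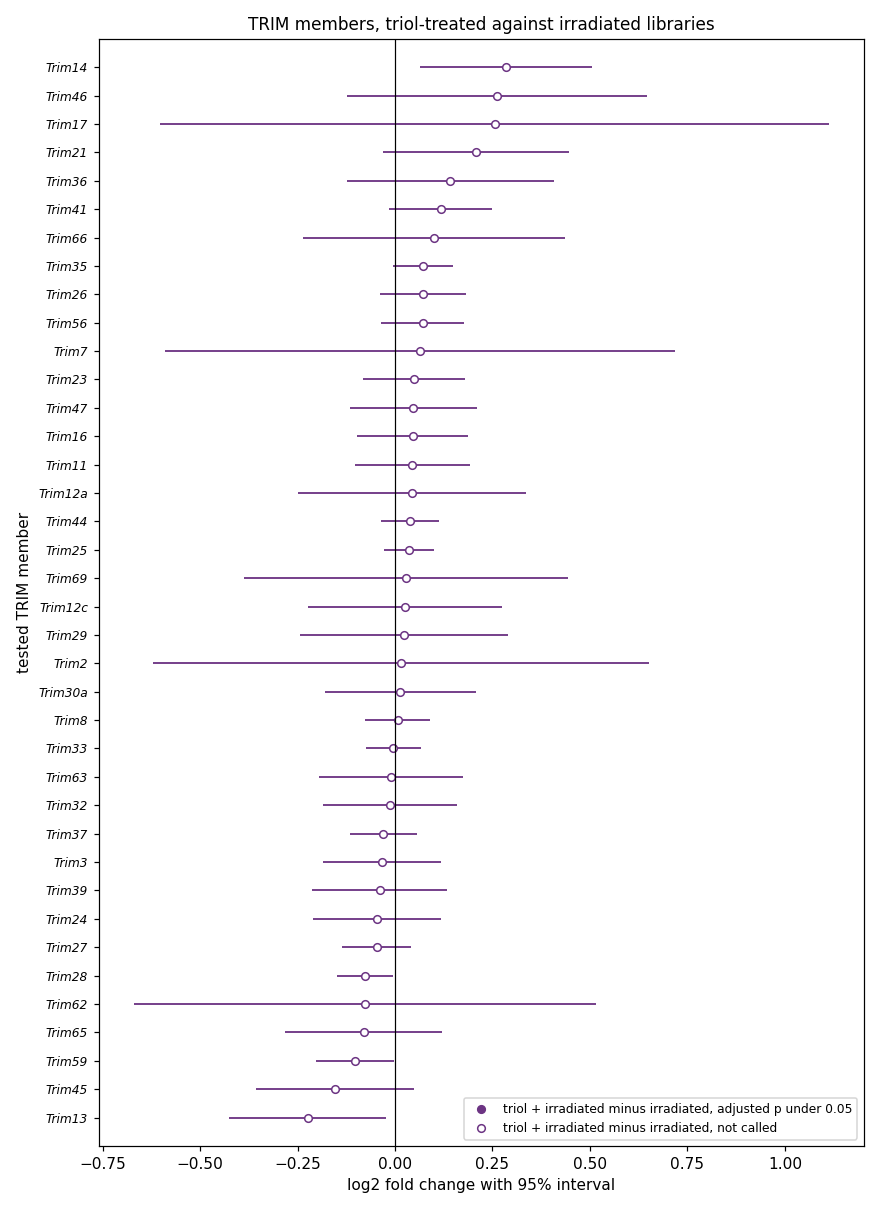
Log2 fold change with 95% interval of each of the 38 tested TRIM members for triol-treated irradiated against irradiated libraries, ordered by value. All points are open because no member passed the adjusted threshold, and they run from −0.22 for Trim13 to 0.29 for Trim14.

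The third comparison set triol-treated irradiated cells against control cells. It shares its control libraries with the first, so the values are given side by side and their likeness is not an independent result. Of 38 members 17 rose and 7 fell, shares of 44.7% and 18.4%, against 21.5% and 21.7% of all tested genes, and together 63.2%, against 43.3%. A called rise of at least 1 on the log2 scale was found in 9 members, against 4.19% of all genes, and an unadjusted p under 0.05 in 26, against 49.8%. Among the 9 were Trim69, Trim2, Trim62, Trim7 and Trim17, which passed the filter on low counts only with libraries of the irradiated groups. In 25 members the libraries lay fully apart, against 51.1% of all genes, 18 higher (25.5% of all genes) and 7 lower (25.6%). Trim69 differed from control by 3.58 with triol and by 3.55 without, Trim30a by 1.45 and 1.44, Trim12c by 1.31 and 1.28, Trim12a by 1.09 and 1.05, and Trim66 by 1.27 and 1.17. For Trim21 the values were 0.78 and 0.57, for Trim14 0.74 and 0.45, for Trim25 0.41 and 0.38, for Trim59 0.51 and 0.62, and for Trim47 −0.53 and −0.58.

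Some calls differed between these comparisons with control, and in none of those members was the difference between triol-treated and irradiated libraries called. Trim45 (0.22, adjusted p = 0.088) and Trim24 (0.16, adjusted p = 0.11) passed for irradiated but not for triol-treated cells. Trim17 (1.43, adjusted p = 0.020), Trim3 (−0.20, adjusted p = 0.022) and Trim65 (−0.31, adjusted p = 0.0082) passed for triol-treated but not for irradiated cells. The call of Trim17 was lost with DESeq2 (0.052) and without control replicate 1 (0.071), control replicate 3 (0.056) or triol replicate 1 (0.097). That of Trim3 was lost without control replicate 1 (0.12) or triol replicate 1 (0.16), and that of Trim65 without control replicate 3 (0.051). Trim28 passed in both, here with 0.09 (adjusted p = 0.036), a call lost with DESeq2, with no filter, and on leaving out control replicates 1 or 3 or any triol replicate (adjusted p up to 0.26).

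**Figure D4:**
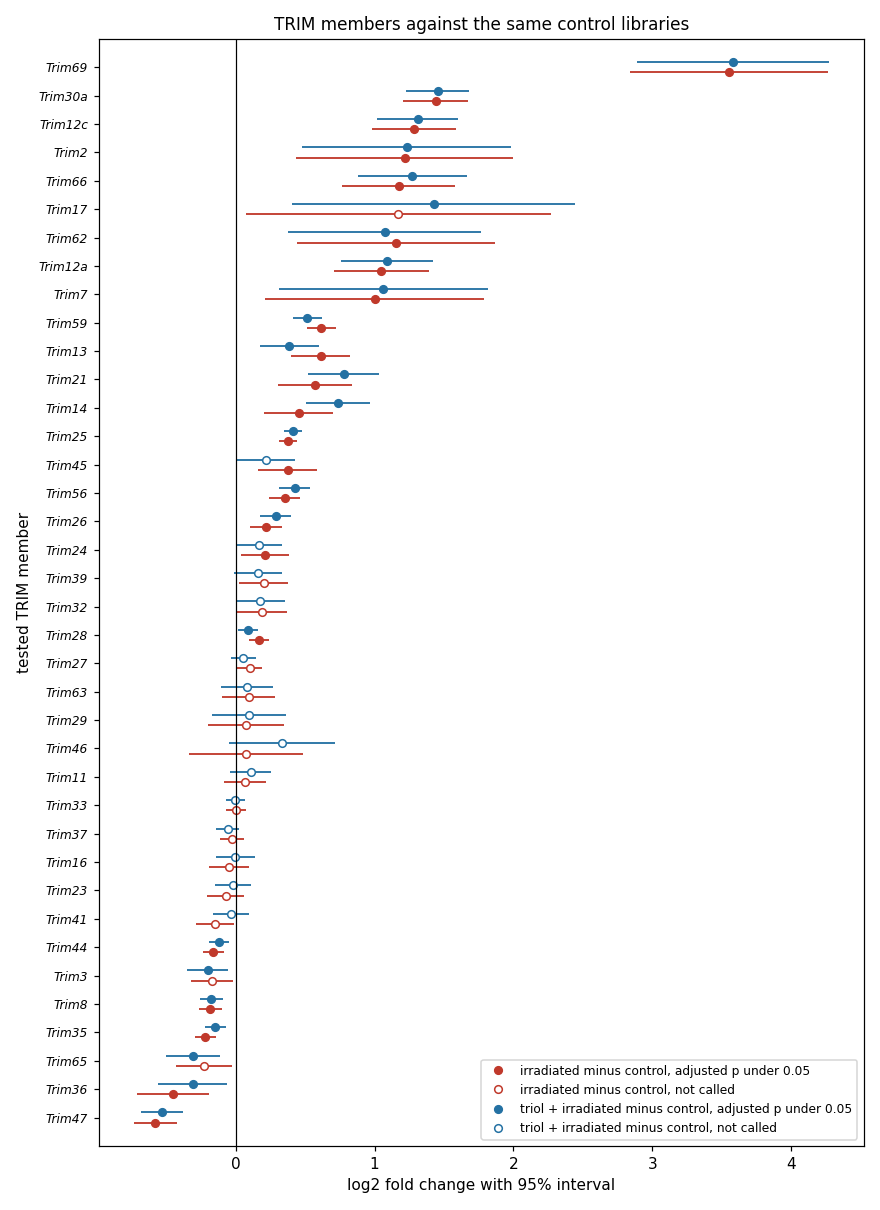
Log2 fold change with 95% interval of each of the 38 tested TRIM members for irradiated (red) and triol-treated irradiated (blue) against the same control libraries, filled where the adjusted p was under 0.05. Trim69 stands at 3.55 and 3.58, Trim30a at 1.44 and 1.45, and Trim47 at the lower end at −0.58 and −0.53.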

How the data were processed

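RNA from 9 BV2 libraries was measured as raw, whole-number counts of reads per gene in 1 table deposited by the authors. The build was GRCm38, and the software named was STAR 2.7.1a, fastp 0.18.0, Subread 1.6.3, featureCounts and FastQC, per the submitters' processing notes. Neither the gene annotation used, nor whether counting used strand, nor how multi-mapping reads were handled is given in the sources used here. Groups and replicate numbers came from the sample titles.

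Genes were filtered with filterByExpr of edgeR (minimum count 10, minimum total count 15), scaled by TMM and tested by quasi-likelihood (edgeR 4.0.16, R 4.3.3). A single fit covered 9 libraries, with 6 residual degrees of freedom and robust dispersion. The two-sided p-values were adjusted by Benjamini-Hochberg over 11295 genes, with calls under 0.05. Unless another tool is named, adjusted p-values and log2 fold changes are from this fit, and the SE follows from the fold change and F. The test was also run on simulated counts, with a common spread for all genes and changes placed only in genes with more reads. That run cannot speak for scarce members, and its outcome is not reported here. Coordinates, exon lengths and transcripts came from GENCODE M21 on GRCm38, and start regions from RefSeq (GRCm38.p6).

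Members, gene lists and classes were chosen with earlier results of these data known. Values in every library are given for members called with a log2 fold change of 0.5 or more in size, for tested members of the chromosome 7 cluster and for a set of known members, and outside the family for up to 2 rises and 2 falls per list. Trim14 and the genes that overlap members were added after their values were seen, as were the read counts of untested members. Of the list of sensing genes 14 of 15 symbols were in the table. Alternatives were DESeq2 1.42.0, upper quartile scaling, no filter, only the compared groups, a replicate block, each library left out, and summed paralogs. Same-numbered libraries had correlations of −0.052 to 0.044 in their deviations from the group means, so the numbers were not taken to pair the samples.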

Additional observations from a re-analysis of the deposited data

How the results depend on the processing

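For irradiated against control cells the number of called members was 23, and it was 21 with DESeq2, 26 with upper quartile scaling, 27 of 57 with no filter, 23 with only the compared groups and 22 with paralogs summed. Leaving out single libraries gave 24 to 27 called members, 18 to 20 of them higher and 5 to 8 lower, with 8 lower without irradiated replicate 1, where 40 members were tested. With the replicate block 24 members were called, 18 higher and 6 lower, and for triol-treated against control cells 24. For triol-treated against irradiated cells the count was 0 under every alternative run, the replicate block included, while the number of all genes called there went from 12 to 22 with the block, 22 with only the compared groups, 36 with no filter, 19 with DESeq2, 8 with upper quartile scaling and 6 to 9 without single libraries. For triol-treated against control cells it was 24, or 20 to 25 without single libraries. Of the 53 named genes tested against irradiation, 535 of 581 alternative values kept direction and call, 20 lost a call, 20 gained it and 6 changed sign. The last were all near 0: Trim33 (log2 fold change 0.0010) had −0.00011 with DESeq2, −0.0099 with no filter and −0.030 to 0.022 without single libraries, and Trim37 (−0.030) had −0.071 to 0.016, above 0 without control replicate 3. For triol against irradiated cells 9 of 143 values changed sign without a call, all on leaving out single libraries, which gave −0.14 to 0.16 for Trim69, −0.052 to 0.14 for Trim30a, −0.082 to 0.14 for Trim12c and −0.071 to 0.12 for Trim12a. Scaling moved the median of all genes by at most 0.029 on the log2 scale. Members with few reads, such as Trim69, Trim2, Trim62, Trim7 and Trim17, have wide intervals, and intervals do not cover reads lost to close paralogs.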
